A study of Coprinopsis cinerea with 29 samples.

Results

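The comparison set 8 libraries of primordia of the mushroom Coprinopsis cinerea against 3 libraries of secondary hyphal knots, 11 of the 29 libraries of a series on its development. Members were taken from the sample titles. The primordia were stage 1 (P1, replicates 1 to 4) and stage 2 (P2, replicates 1 to 4), pooled into 1 group, and the knots (H) were replicates 2 to 4. All groups came from strain 326, whose label gives A43mut B43mut pab 1-1. A43mut and B43mut are mutations in the mating-type factors A and B that let a single strain fruit without a mate, and pab 1-1 is a p-aminobenzoic acid auxotrophy. Cultures grew on agar in darkness, 5 days at 37 °C, before a move to 25 °C with a day of 12 h light and 12 h dark. Polyadenylated RNA was sequenced from structures that were not divided by tissue, and no label ties a replicate to a culture, so p-values measure the spread between these libraries, which may be technical.

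In this fungus the hyphae of the feeding mycelium first aggregate into knots. A secondary hyphal knot is the compact, light-dependent aggregate that is committed to making a fruiting body. The primordium that grows out of it lays down the tissues of stipe, cap and gills before the fruiting body expands. The gene models carry only numbers of the genome project, and 0 of 14242 matched a name or accession in a reference table of 13657 genes of another strain. Gene models are therefore given by number, with no statement of what they encode, and lists of developmental genes known by name could not be used.

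The 11 libraries held 12183574 to 23877693 counted reads, and 11990 gene models passed the filter on low counts. Across genes, which are not independent replicates, log2 CPM correlated with a median r of 0.971 among the 8 primordium libraries, 0.943 among the 3 knot libraries and 0.942 between primordia and knots. The knot libraries differed in this: the median r of H replicate 2 was 0.938 with primordia and 0.951 with the other knots, and that of H replicate 3 was 0.922 with primordia and 0.941 with the other knots. H replicate 3 stood apart in its TMM scaling factor, 0.999 against 1.29 to 1.52 in the primordia and 1.32 and 1.52 in the other knot libraries. Per the labels, H replicate 4 shared a second flow cell with P1 replicate 4 and P2 replicate 4, and its median r was 0.948 with the primordia and 0.934 with the other knots.

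Pooling the stages asked what separates primordia as a class from knots. Primordia had 210 gene models higher (1.75% of those tested) and 782 lower (6.52%) than knots, 992 in all or 8.27%. A call needed a 2-fold change or more and, in edgeR's quasi-likelihood test, an adjusted p under 0.05. Falls thus made up 78.8% of the calls. Their share was 70.9% with library size alone as the scaling. It was 83.4%, 68.8% and 78.7% without H replicate 2, 3 or 4. A change of 4-fold or more was called for 73 higher (0.609%) and 277 lower gene models (2.31%), together 2.92% of those tested. The median log2 change was 1.67 among the 210, -1.72 among the 782 and -0.03 among all gene models tested. Between P2 and P1 edgeR called 0 gene models, with 212 of 11990 at an unadjusted p under 0.05. Across genes, some libraries correlated more closely across the stages than any did within a stage. P1 replicates 2 and 3 had an r of 0.9919 and 0.9895 with P2 replicate 1. P1 replicate 4 had 0.9866 with P2 replicate 4. The highest r within a stage was 0.9853 in P1 and 0.9747 in P2. The count of 0 thus does not show that the stages were alike. RNA from whole structures does not tell fewer cells of a type from less RNA per cell.

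The fits share libraries, so the count of changes that held is a description. Of the 992 pooled calls, 258 passed in the same direction in P1 alone, in P2 alone, without H replicate 3 and without H replicate 4. They were 76 rises (0.634% of the gene models tested) and 182 falls (1.52%), together 2.15%, and 36.2% of the pooled rises and 23.3% of the pooled falls. Without H replicate 2 as a further condition 215 remained, 65 higher and 150 lower. Among those with ranges that did not overlap and a mean of at least 10 RPKM in the higher group, the 2 largest rises and the 2 largest falls are described next. CPM values are counts scaled to the library's size and TMM factor, and RPKM is the same per kilobase of gene model.

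Gene model 545448, 739 bases long, was the largest rise of all gene models tested. Its level was 1.17 CPM in the lowest primordium library, 57.3 at the median and 134 in the highest, against 0.510, 0.923 and 0.155 CPM in H replicates 2, 3 and 4. Every primordium library lay above every knot library, although the lowest primordium value, in P1 replicate 1, was close to the highest knot value. The log2 change was 6.71 ± 1.32 (SE, adjusted p = 0.00218 in edgeR), 5.93 for P1 alone and 7.21 for P2 alone. It was 7.44 without H replicate 3 and 6.26 without H replicate 4. The gene model was close to absent elsewhere, with 0.0234 ± 0.0202 CPM in vegetative mycelium (SD, n = 3) and 0 to 0.849 CPM in the means of the 5 groups of fruiting body tissue.

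Gene model 469878, 546 bases long, had 1.58 CPM in the lowest primordium library, 8.37 at the median and 13.3 in the highest, against 0.371, 0.545 and 0.465 CPM in H replicates 2, 3 and 4. The knot libraries were close together and all below the primordia. The log2 change of 4.01 ± 0.71 (SE, adjusted p = 0.000711 in edgeR) was 3.65 for P1 alone and 4.29 for P2 alone. It was 4.18 without H replicate 3 and 4.01 without H replicate 4. Among fruiting body tissues it was highest in those with cap, at 763 ± 539 CPM in the young cap and 573 ± 72 CPM in mature cap collected with its lamellae (SD, n = 3 each). It had 52.1 ± 10.4 CPM in the mature stipe, 11.2 ± 10.9 CPM in the young stipe and 1.01 ± 0.584 CPM in young lamellae (SD, n = 3 each), the last below the primordium median.

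Gene model 380482, 1305 bases long, led the falls chosen in this way. Primordia had 7.61 CPM at the lowest, 10.4 at the median and 15 at the highest, against 54.9, 488 and 23.1 CPM in H replicates 2, 3 and 4. The ranges did not overlap, and the knot libraries differed far more among themselves than the primordia did. The log2 change was -4.19 ± 0.50 (SE, adjusted p = 2.99e-05 in edgeR), -4.27 for P1 alone and -4.11 for P2 alone. Without H replicate 3 it was -1.86 (edgeR adjusted p = 0.00261), and without H replicate 4 it was -4.71. Vegetative mycelium had 322 ± 199 CPM (SD, n = 3).

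Gene model 187072, 916 bases long, ran from 11.7 CPM over a median of 14.1 to 28.2 CPM in primordia, against 59.0, 662 and 38.5 CPM in H replicates 2, 3 and 4. It too was highest in H replicate 3 and lowest of the knots in H replicate 4. The log2 change was -3.87 ± 0.52 (SE, adjusted p = 7.99e-05 in edgeR), -3.80 for P1 alone and -3.94 for P2 alone, and -4.38 without H replicate 4. It passed narrowly without H replicate 3, at -1.44 (edgeR adjusted p = 0.0466). Vegetative mycelium had 93.1 ± 33.1 CPM (SD, n = 3).

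**Figure D1:**
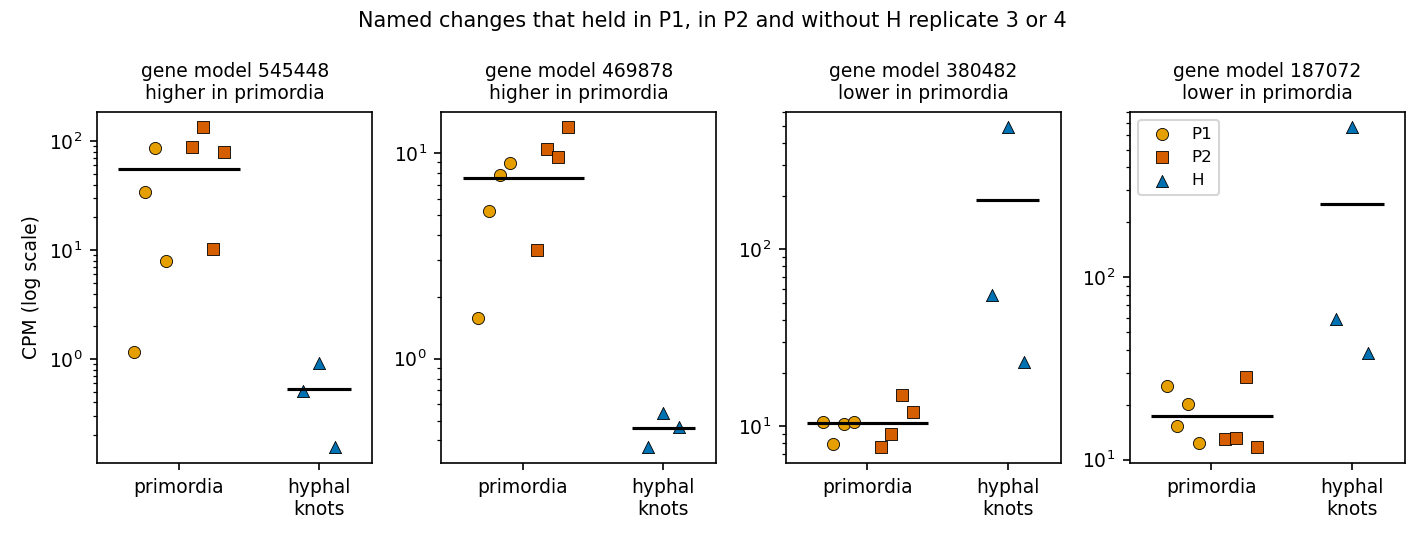
CPM on a log axis of the 4 named gene models in each primordium library (P1 circles, P2 squares) and each knot library (H, triangles), with a line at each group's mean. Values of primordia and knots do not overlap in any panel, and in 380482 and 187072 the knot mean is drawn up by H replicate 3, at 488 and 662 CPM.

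Each stage was then set against the knots by itself. P1 alone had 121 gene models higher (1.01%) and 495 lower (4.13%) than knots, 5.14% of those tested, and P2 alone had 165 higher (1.38%) and 442 lower (3.69%), 5.06%. Both share the 3 knot libraries with the pooled comparison, and the libraries of each stage are part of its primordium group. Of the pooled calls 590 were also called in P1 alone, which is 59.5% of the 992 and 95.8% of the calls of P1. In P2 alone 567 were called, 57.2% of the 992 and 93.4% of the calls of P2. Both stages called 440 of them, 91 higher and 349 lower. A further 275, 37 higher and 238 lower, were called only with the stages pooled. All 992 had the same sign of change in P1 and in P2, which the shared libraries favour. With library size alone as the scaling, the split in P2 was 191 higher and 291 lower, and the median gene model shifted to 0.10 on the log2 scale. With a fit to the 11 libraries alone, P1 had 154 calls and P2 had 243, while the pooled comparison had 955. The P1 count was 366, 277 and 1014 without H replicate 2, 3 or 4, and 232 and 290 without P1 replicate 2 or 3. The P2 count was 382, 264 and 957 without H replicate 2, 3 or 4, and 298, 384 and 390 without P2 replicate 1, 2 or 4.

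Calls in a single stage do not show a difference between the stages, since no gene model was called between P2 and P1. In P1 and not in P2, 30 rises and 146 falls against knots were called, out of 11990 gene models tested. The leading rises were 500817, at 4.52 ± 2.61 CPM in P1 (SD, n = 4) against 0.277 ± 0.150 CPM in H (SD, n = 3), and 450229, at 27.3 ± 13.7 against 3.34 ± 0.528 CPM in H. Gene model 500817 had a log2 change of 4.00 ± 0.85 in P1 (SE, adjusted p = 0.00764 in edgeR) and 2.43 ± 0.82 in P2 (edgeR adjusted p = 0.0796). Gene model 450229 had 3.03 ± 0.79 in P1 (SE, adjusted p = 0.0227 in edgeR) and 2.13 ± 0.76 in P2 (edgeR adjusted p = 0.0978). Its P1 call was lost without H replicate 2, 3 or 4 and without P1 replicate 3, with edgeR adjusted p of 0.0735, 0.0944, 0.0501 and 0.0625.

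The leading falls of P1 were 445494 and 439060. Gene model 445494 stood at 16.4 ± 13.5 CPM in P1 (SD, n = 4) against 167 ± 119 CPM in H (SD, n = 3), a log2 change of -3.35 ± 0.87 (SE, adjusted p = 0.0215 in edgeR). That call was lost without H replicate 2 or 3 and without P1 replicate 2 or 3, with edgeR adjusted p of 0.0808, 0.0857, 0.0820 and 0.0855. Gene model 439060 stood at 12.0 ± 7.61 CPM in P1 against 111 ± 53.9 CPM in H, a log2 change of -3.21 ± 0.69 (SE, adjusted p = 0.0081 in edgeR). In P2 it had 42.6 ± 26.2 CPM (SD, n = 4) and a log2 change of -1.38 ± 0.66 (edgeR adjusted p = 0.239). The mean levels of both in P2 lay between those of P1 and the knots.

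In P2 and not in P1, 74 rises and 93 falls were called, out of 11990 gene models tested. Gene model 355122 led the rises, at 147 ± 171 CPM in P2 (SD, n = 4) against 6.88 ± 1.36 CPM in H (SD, n = 3), a log2 change of 4.42 ± 1.08 (SE, adjusted p = 0.0168 in edgeR). Its level in P2 ranged from 9.53 CPM in replicate 1 to 389 CPM in replicate 3. The change was 3.27 without P2 replicate 3 (edgeR adjusted p = 0.0473), and the call was lost without H replicate 2 or 3, with edgeR adjusted p of 0.0577 and 0.0873. Gene model 543728 stood at 117 ± 85.6 CPM in P2 against 7.14 ± 1.89 CPM in H, a log2 change of 4.04 ± 1.01 (SE, adjusted p = 0.0185 in edgeR). It was not called without H replicate 2 or 3 or without P2 replicate 2, with edgeR adjusted p of 0.0782, 0.0843 and 0.0522.

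The leading falls of P2 were less stable. Gene model 537873 stood at 2.53 ± 1.81 CPM in P2 (SD, n = 4) against 28 ± 21 CPM in H (SD, n = 3), a log2 change of -3.46 ± 1.02 (SE, adjusted p = 0.0453 in edgeR). With the replicate number as a block its edgeR adjusted p was 0.052, and it was above 0.05 without any one of the 3 knot libraries, without P1 replicate 2 or 3 and without P2 replicate 1, 2 or 4, the highest being 0.133. Gene model 369511 stood at 122 ± 32.3 CPM in P2 against 747 ± 457 CPM in H, a log2 change of -2.61 ± 0.75 (SE, adjusted p = 0.0398 in edgeR). Without H replicate 2 or 3, or without any P2 replicate, it was not called, with edgeR adjusted p of 0.0552 to 0.163.

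The knot libraries weighed unequally on the pooled comparison. Without H replicate 3 primordia had 141 gene models higher (1.18%) and 311 lower (2.59%), 452 in all or 3.77% of those tested. Of the 992 pooled calls 392 were kept, 105 of 210 rises and 287 of 782 falls. Without H replicate 4 there were 263 higher (2.19%) and 974 lower (8.12%), 1237 in all or 10.3%, and 831 of the 992 were kept, 142 rises and 689 falls. Without H replicate 2 there were 113 higher (0.942%) and 568 lower (4.74%), 681 in all or 5.68%, and 616 were kept, 96 rises and 520 falls. No pooled call passed in the opposite direction in these fits. The sign of the change was that of the pooled fit for 982 of the 992 without H replicate 3 and for 991 without H replicate 4.

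**Figure D2:**
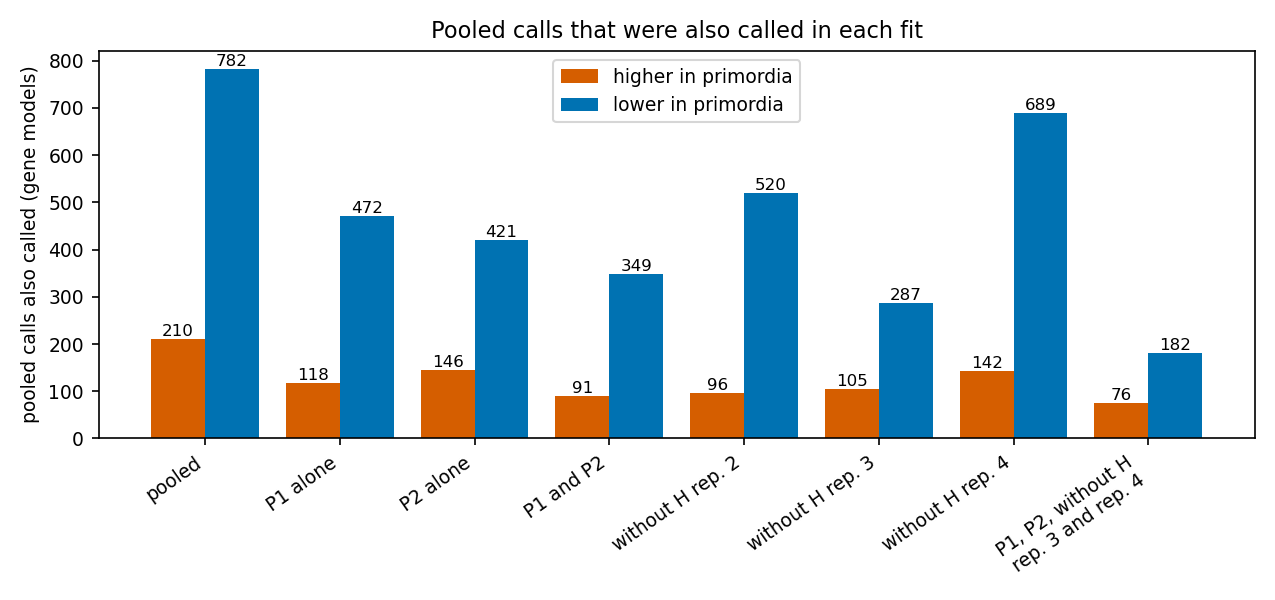
Number of the 992 pooled calls also called in the same direction in each fit, rises and falls as separate bars. The lowest bar for falls among the fits that leave out 1 knot library is that without H replicate 3, at 287 of 782.

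Of the 495 falls lost without H replicate 3, that library was the highest knot for 400 (80.8%), against 462 of all 782 falls (59.1%) and 33.1% of all gene models tested. A fall that leaves with a library is selected for being high in it, so these shares are a description. Of the 105 rises lost, H replicate 3 was the highest knot for 14 (13.3%) and the lowest for 46 (43.8%). Gene model 371137, the lost fall with the largest change, had 0.156 to 1.41 CPM in primordia with a median of 0.292, against 1.86, 78.6 and 0.542 CPM in H replicates 2, 3 and 4. The log2 change was -5.83 ± 0.95 (SE, adjusted p = 0.00033 in edgeR) and -1.28 without H replicate 3 (edgeR adjusted p = 0.508). Gene model 501398 had 5.40 to 99.0 CPM in primordia with a median of 9.54, against 673, 1490 and 2.56 CPM. In that gene model H replicate 4 lay below every primordium library, and the log2 change of -5.01 ± 1.17 (SE, adjusted p = 0.00587 in edgeR) was -3.85 without H replicate 3 (edgeR adjusted p = 0.075) and -5.98 without P2 replicate 3.

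Among the 105 rises lost without H replicate 3, the 2 with the largest change and at least 10 RPKM in primordia were 355122 and 543728, described above for P2. Their pooled log2 changes of 3.63 and 3.59 were 3.55 and 3.73 without that library, with edgeR adjusted p of 0.167 and 0.0828. The size of these changes thus stayed, while the p-value with 2 knot libraries did not pass. Gene model 355122 was also not called without H replicate 2 or 4 or without P2 replicate 2 or 3, with edgeR adjusted p of 0.124, 0.0916, 0.0534 and 0.0673, and its change without P2 replicate 3 was 2.61. Gene model 543728 had an edgeR adjusted p of 0.0854 without H replicate 2.

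Without H replicate 3, 36 rises and 24 falls were called, out of 11990 gene models tested, that the pooled comparison did not call. The leading rises were 542008, with 4.46 to 61.6 CPM in primordia against 2.74, 8.14 and 1.36 CPM in H replicates 2, 3 and 4, and 374767, with 13.3 to 170 CPM against 12.8, 34.6 and 6 CPM. Their log2 changes were 3.09 and 2.81 without H replicate 3 (edgeR adjusted p = 0.0438 and 0.0292) against 2.04 and 1.84 with it (edgeR adjusted p = 0.0627 and 0.0549). The leading falls were 489587, high only in H replicate 4 among the knots, and 501702, high in H replicates 2 and 4. Gene model 489587 had 1.94 to 6.64 CPM in primordia against 1.11, 0.964 and 58.7 CPM, and 501702 had 1.06 to 16.8 CPM against 37.6, 2.98 and 24.9 CPM. The log2 change of 489587 was -2.61 without H replicate 3 (edgeR adjusted p = 0.0281) and turned to 2.22 without H replicate 4 (edgeR adjusted p = 0.0363), so its direction turned with H replicate 4. It was also called without H replicate 2 (edgeR adjusted p = 0.0212). The log2 change of 501702 was -2.36 without H replicate 3 (edgeR adjusted p = 0.0315). It was -1.25 without H replicate 2 and -1.79 without H replicate 4 (edgeR adjusted p = 0.378 and 0.103). Other single libraries also brought these gene models past the threshold when left out: P1 replicate 1 for 542008 and 374767, P1 replicate 4 for 374767 and 501702, and P2 replicate 2 for 501702, with edgeR adjusted p of 0.0122 to 0.0414.

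Without H replicate 4, 68 of the pooled rises (32.4%) and 93 of the pooled falls (11.9%) were lost. Gene model 355122 led the rises again, followed by 473117, with 18.5 to 181 CPM in primordia against 5.24, 9.90 and 2.59 CPM in H replicates 2, 3 and 4. The log2 change of 473117 was 3.54 ± 0.94 (SE, adjusted p = 0.0154 in edgeR). It passed without H replicate 3, at 4.18, and did not without H replicate 4 or 2, with edgeR adjusted p of 0.0567 and 0.0762. The leading falls, 427800 and 354746, were high in H replicate 4 and in no other knot library. Primordia had 0.144 to 2.30 and 0.192 to 1.31 CPM of them, against 29.7 and 23.9 CPM in H replicate 4 and at most 1.58 CPM in H replicates 2 and 3. Their log2 changes of -3.81 and -3.62 (edgeR adjusted p = 0.00137 and 0.000566) were -0.85 and -0.76 without H replicate 4 (edgeR adjusted p = 0.487 and 0.404).

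More gene models were gained than lost without H replicate 4. Of the 406 gained, 121 were rises, and H replicate 4 was the highest knot library for all 121, against 34.3% of all gene models tested. A gene model gained without a library is selected for its level in that library, so such counts are a description. Gene model 152930 had 354 CPM in the lowest primordium library, 540 at the median and 1020 in the highest, against 65.7, 57.1 and 539 CPM in H replicates 2, 3 and 4. H replicate 4 had a primordium level of this gene model, and H replicates 2 and 3 lay below all primordia. The log2 change was 3.35 without H replicate 4 (edgeR adjusted p = 0.00555) and 1.51 with it (edgeR adjusted p = 0.177). Gene model 364894 had 32.6 to 122 CPM in primordia against 9.23, 4.74 and 49.9 CPM, with a log2 change of 3.25 without H replicate 4 (edgeR adjusted p = 0.000497) and 1.64 with it (edgeR adjusted p = 0.0598). Gene model 364894 also passed without P2 replicate 2 (edgeR adjusted p = 0.0484).

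Of the 285 falls gained without H replicate 4, that library was the lowest knot for 277 (97.2%), against 36.8% of all gene models tested. The way these falls were chosen favours this, so the count is a description. Gene model 51102 had 1.56 to 392 CPM in primordia against 132, 2910 and 10.4 CPM in H replicates 2, 3 and 4, and 476197 had 13.9 to 265 CPM against 244, 1450 and 154 CPM. The ranges of primordia and knots overlapped in both. Their log2 changes without H replicate 4 were -3.89 and -3.22 (edgeR adjusted p = 0.0224 and 0.0315). Without H replicate 3 they were 0.59 and -1.09 (edgeR adjusted p = 0.886 and 0.658). The fall of 51102 was thus not seen without that library, and that of 476197 was smaller and not called. Both were also called without P2 replicate 3 (edgeR adjusted p = 0.0243 and 0.0267), and 476197 without P1 replicate 1 (edgeR adjusted p = 0.0469).

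Rises and falls differed in how evenly the knots took part. Over the 210 rises, the median of the primordium mean minus the knot library was 1.62, 1.56 and 1.61 on the log2 CPM scale for H replicates 2, 3 and 4. Over the 782 falls it was -1.71, -2.08 and -0.47. H replicate 4 was thus the knot library nearest to the primordium mean for 75.1% of the falls, 37.1% of the rises and 46.1% of all gene models tested. Over the 182 falls that held, the medians were -2.49, -2.25 and -0.80. These sets were called with the same libraries, so the values describe them and test nothing. H replicate 4 is also the only knot library of the second flow cell. Within the first flow cell, which leaves 6 primordium and 2 knot libraries, 329 gene models were higher and 938 lower in pooled primordia, 1088 were called in P1 and 758 in P2. Of all 992 pooled calls, 828 were called there in the same direction, and of the 258 changes that held, 252. The 258 had to pass without H replicate 4, which this fit also leaves out, so that share was largely set in advance. With the flow cell as a covariate in all libraries the pooled count was 922. It included 895 of the 992 and all 258, which were chosen for passing in several fits. The second flow cell holds 2 primordium libraries and 1 knot library, too few for a value of its own.

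**Figure D3:**
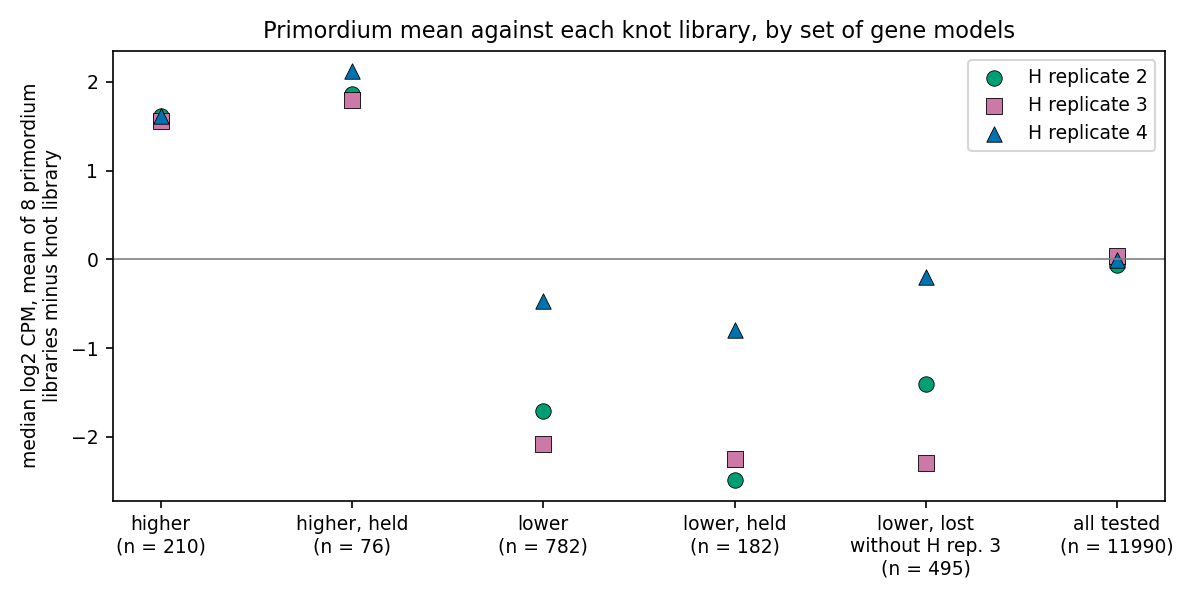
Median over gene models of log2 CPM, mean of the 8 primordium libraries minus each knot library, for the sets of called gene models and for all gene models tested. The 3 knot libraries lie together for rises, near 1.6, and apart for falls, where H replicate 4 is closest to 0 at -0.47.

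Reads on the called gene models were summed in each library. The 782 falls held 3.74% ± 0.871 of the reads in primordia (SD, n = 8) and 12.3% ± 7.16 in knots (SD, n = 3). The share ran from 2.77% to 5.44% over the primordium libraries and from 5.07% in H replicate 4 to 19.4% in H replicate 3, so the lowest knot library was within the range of the primordia. The 210 rises held 2.12% ± 0.519 in primordia (SD, n = 8) and 0.612% ± 0.0862 in knots (SD, n = 3). Their share ran from 1.39% to 2.72% in primordia and from 0.543% to 0.709% in knots, without overlap. Both sets were called with these same libraries, so a gap between primordia and knots is favoured by their choice. Among primordia the share of the rises did not follow the stage: it was above 2.5% in P1 replicates 2 and 3 and P2 replicate 1, and lowest in P1 replicate 4.

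**Figure D4:**
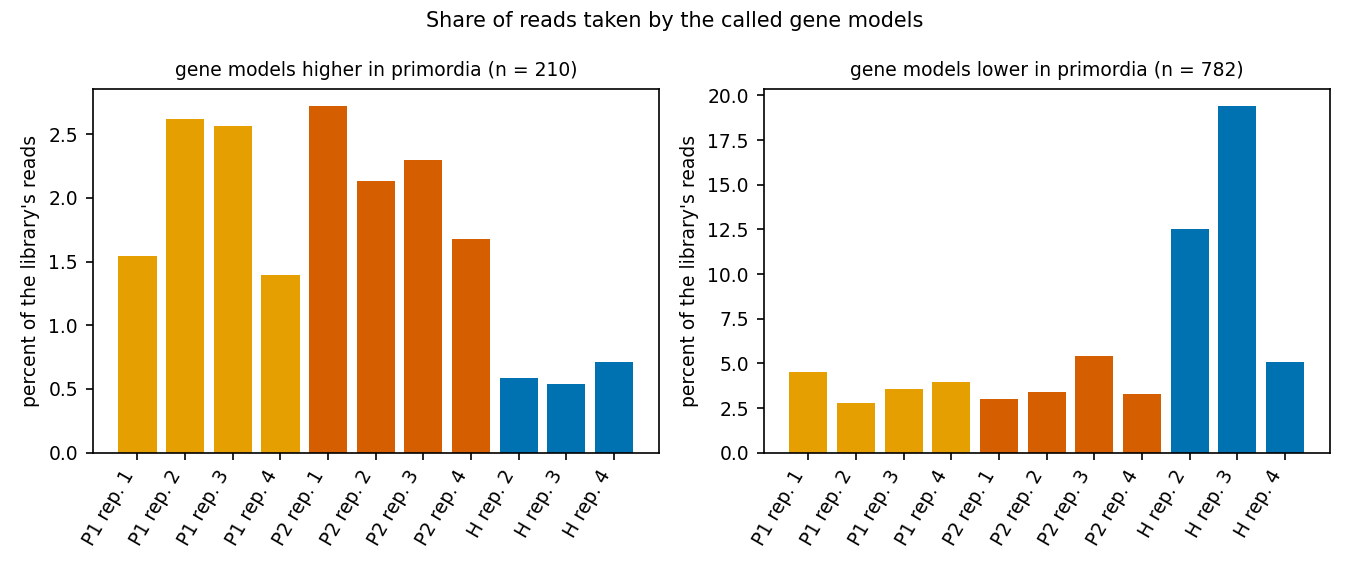
Percent of each library's reads that fell on the 210 gene models higher (left) and the 782 lower (right) in primordia, with P1 in yellow, P2 in orange and H in blue. For the falls H replicate 3 stands highest at 19.4% and H replicate 4, at 5.07%, lies among the primordia.

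Non-overlapping ranges were far commoner among rises than among falls. Of the 210 rises 135 had every primordium library above every knot library (64.3%), where 3.89% of all gene models tested did. Of the 782 falls 217 had every primordium library below every knot library (27.7%), where 4.6% of all did. In both directions together 8.49% of all gene models tested had ranges that did not overlap. Among the 258 that held, it was 66 of 76 rises and 87 of 182 falls. These sets were called with the same libraries, so the shares describe them and test nothing. Calls were spread over all levels: falls made up 7.94% of gene models in the lowest quartile of mean RPKM and 7.07% in the highest, and rises 1.4% and 1.87%. The median length was 1134.5 bases for rises, 1227.5 bases for falls and 1317 bases for all gene models tested.

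The levels of the called gene models in mycelium and fruiting body tissues were not part of the contrast that chose them. Those libraries did enter the filter and the estimate of the spread. A fit to the 11 libraries alone called 810 of the 992 in the same direction. Those that rose had a median RPKM of 17.0 in P1 and 18.3 in P2, against 5.22 in H. The median was 3.51 in vegetative mycelium (VM), 9.68 in young lamellae, 22.8 in the young cap and 28.7 in the young stipe, and lower again in mature tissue, 6.83 in the cap with lamellae and 7.4 in the stipe. Those that fell had 8.11 in P1 and 9.16 in P2, against 30.9 in H, and stood at 20.5 in VM, 7.25 in young lamellae, 7.23 in the young cap, 4.55 in the young stipe, 14.3 for mature cap with lamellae and 8.41 for mature stipe. Over all gene models tested, the medians of the 9 groups lay between 13 and 16.8.

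Young fruiting body tissues against vegetative mycelium share no library with primordia and knots, though they share the fit. With the mean of young cap, lamellae and stipe, 22.7% of all gene models tested were higher and 25.4% lower than in mycelium, 48.1% in all. Among the 210 rises 153 were higher (72.9%) and 11 lower (5.24%), with a median log2 change of 2.50. Among the 782 falls 81 were higher (10.4%) and 423 lower (54.1%), with a median log2 change of -1.33. Of the changes that held, 61 of 76 rises were higher and 0 lower, and 119 of 182 falls were lower and 16 higher. The median log2 change over all gene models was 0.02. These counts describe the sets and were not tested against other lists.

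Peaks of the held sets are given beside the share of all gene models tested that peaked in the same group. Of the 76 rises that held, 23 had their highest group mean in the young cap (30.3%, against 12% of all) and 21 in the young stipe (27.6%, against 13.5%). Young lamellae held the peak of 10 (13.2%, against 15.2%), P2 of 10 (13.2%, against 1.74%) and P1 of 2 (2.63%, against 3.81%). The mature cap with lamellae and the mature stipe held 6 and 4. Mycelium had the lowest mean for 38 rises (50%, against 15.5%). Of the 182 falls that held, 93 peaked in knots (51.1%, against 5.8%), 38 in mycelium (20.9%, against 16.4%) and 32 in the mature cap with lamellae (17.6%, against 16%). A peak in knots is favoured by the choice of falls, which had to be higher in knots than in P1 and P2, as a peak in P1 or P2 is by the choice of rises. The lowest level of these falls was most often in the young stipe, for 50 of 182 (27.5%, against 12.6% of all), and in P1 for 14 and P2 for 9.

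**Figure D5:**
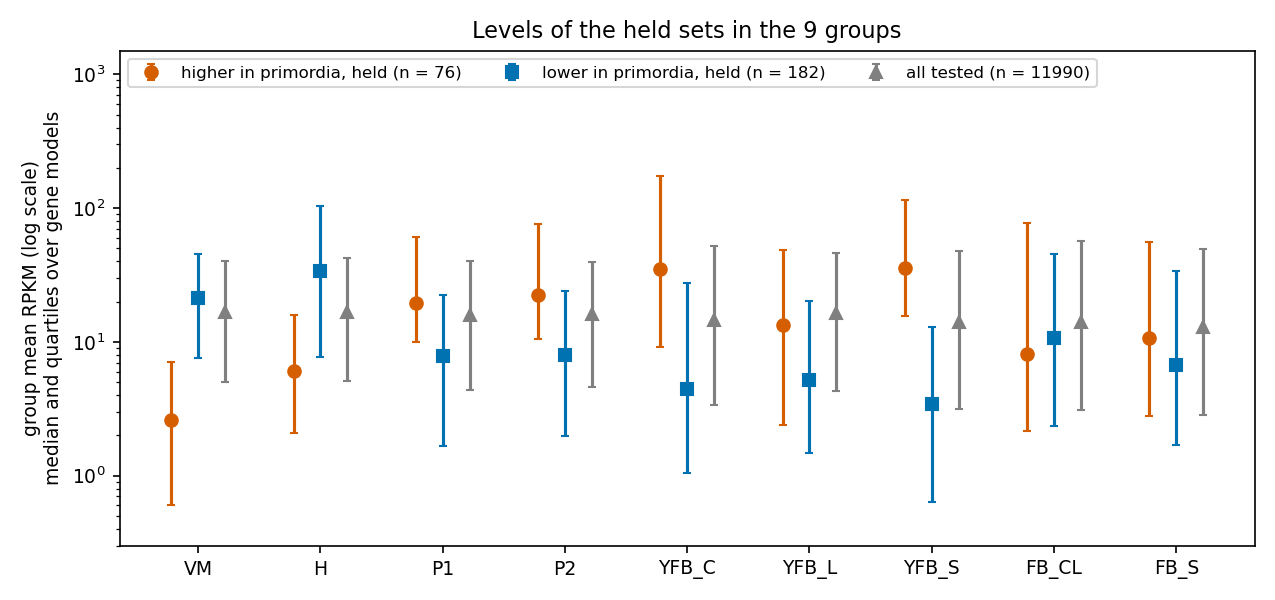
Median and quartiles over gene models of group mean RPKM (log axis) in the 9 groups, from mycelium (VM) over knots (H), primordia (P1, P2) and young cap, lamellae and stipe (YFB_C, YFB_L, YFB_S) to the mature cap with lamellae and stipe (FB_CL, FB_S). The 76 held rises have their highest medians in the young stipe and cap, 35.5 and 35, and the 182 held falls have theirs in knots, 33.7.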

How the data were processed

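Polyadenylated RNA was sequenced from 29 libraries in 9 groups, of which 8 primordium and 3 knot libraries are compared here. The authors deposited, for each library, whole-number counts of total and unique reads per gene model and TPM, per the file headers. The counts of total gene reads were tested, and no test used the deposited TPM. The authors also deposited a table of log2 RPKM, used for tests only in the limma alternatives, which covered 12003 gene models. The submitters' processing notes name R 3.0.2, edgeR 3.4.2 and limma 3.18.13. For the version of the read mapper and the genome assembly: not given in the sources used here. The kit named in the labels does not mark strand, so reads of overlapping gene models on opposite strands cannot be told apart. Of the counted reads 99.8% were unique.

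From the counts, edgeR 4.0.16 in R 4.3.3 kept 11990 of 14242 gene models (filterByExpr over the groups, 2252 set aside) and scaled them by TMM. A quasi-likelihood fit to all 29 libraries had 1 coefficient for the 8 primordium libraries; P1 and P2 were tested in a fit with a coefficient each. Calls needed a 2-fold change and, after Benjamini-Hochberg adjustment, p under 0.05. The SE of a log2 change is its size divided by the square root of F. CPM values used TMM-scaled library sizes, and their number of libraries and counting error, from 12183574 reads upward, set their precision. A change held if it was called alike in the pooled fit, in P1, in P2, without H replicate 3 and without H replicate 4. Members and lists were chosen with earlier results of these data known. Named gene models were at most 2 rises and 2 falls per set, those with the largest change and at least 10 RPKM in the higher group; for the changes that held and for those of a single stage, the ranges of the groups compared also did not overlap. Alternatives were DESeq2 1.42.0, limma 3.58.1 on log2(RPKM + 1) and log2(RPKM + 0.1), other scalings and filters, unique reads, the flow cell, the 11 libraries alone, a replicate block, and leaving out each library. The scripts were tested on simulated data.

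Replicate numbers come from the titles. Deviations from the group means correlated between knots and P2 of the same number at 0.323, 0.282 and 0.17 for numbers 2, 3 and 4. All were over 0.1, and on that cutoff the numbers were taken to pair knots with P2. Knots and P2 of unlike number ran from -0.371 to 0.164, so the cutoff does not separate like from unlike numbers. Number 4 was also the second flow cell in both groups. The main fits used no pairing. Between knots and P1 the correlations for numbers 2, 3 and 4 were -0.0357, 0.291 and -0.0239, so the numbers were not taken to pair these. Knots and P1 of unlike number ran from -0.387 to 0.411.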

Additional observations from a re-analysis of the deposited data

Results flagged for a closer look

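A value was picked out where 1 library of a group of 4 or 8 lay so far from the nearest other that Dixon's test passed at its 95% level. Chance gives about 1 in 20 such values where values are normally distributed. There were 17 of 96 here, and the tests overlap, since P1, P2 and all 8 primordia were each examined. CPM was examined without a log scale, and the gene models were picked for large changes. The count therefore does not measure an excess over chance.

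P2 replicate 3 lay apart most often. It was the highest of the 8 primordium libraries for 445494 (82.7 CPM), 355122 (389 CPM), 473117 (181 CPM) and 501398 (99.0 CPM, also within P2). Within P2 it was the highest for 187072 (28.2 CPM), 371137 (1.41 CPM) and 51102 (392 CPM), and in its share of reads on the gene models lower in primordia, at 5.44%. P2 replicate 2 was the highest of the 8 for 542008 (61.6 CPM, also within P2) and 374767 (170 CPM), the highest within P2 for 501702 (16.8 CPM), and had the highest TMM factor of the 8, 1.52. Within P1, replicate 2 was the lowest for 380482 (7.89 CPM) and replicate 1 the highest for 427800 (2.30 CPM). P2 replicate 4 had the fewest reads of P2, 16452597.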

How the results depend on the processing

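The pooled count of 992 was 622 with limma on log2(RPKM + 1), 350 at 4-fold, and 452 to 1237 with 1 library left out. The P1 count of 616 was 363 with limma on log2(RPKM + 1), 359 on log2(RPKM + 0.1), 154 in a fit to the 11 libraries alone, 1088 within the first flow cell, 298 at 4-fold, and 232 to 1014 with 1 library left out. The P2 count of 607 was 397 and 345 with limma at those pseudocounts, 243 with the 11 libraries alone, 271 at 4-fold, and 264 to 957 with 1 library left out. The 258 changes that held were 104 with the 11 libraries alone. A fit to the 11 libraries alone has fewer samples to estimate the spread, and it gave 955 pooled calls. The causes of these shifts, those with the 11 libraries included, were not tested. With the replicate block the counts were 836 pooled, 434 in P1 and 494 in P2. DESeq2 gave 1088, 864 and 896. Of named gene models, 489587 turned to 2.22 without H replicate 4 (-2.62 without H replicate 2) and 51102 to 0.59 without H replicate 3 (-4.05 without P2 replicate 3) on the log2 scale. The block, added for named gene models after seeing the data, ended the P2 call of 537873 and changed no other call named for P2. It also ended the pooled calls of 355122 and 439060 and the P1 call of 445494 (edgeR adjusted p = 0.0678, 0.0599 and 0.0964) and brought in the pooled call of 364894 (edgeR adjusted p = 0.0359). Of the 992 pooled calls, limma on log2(RPKM + 1) called 589 and DESeq2 967, and of the 258 they called 236 and 257. The flow cell covariate, estimated with the 2 primordium libraries and 1 knot library of the second flow cell, gave 922 pooled calls. They included 895 of the 992 and all 258.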
